A study of Homo sapiens with 9 samples.

Results

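The genes described are the tumour necrosis factor (TNF) superfamily ligands and their receptors. They were chosen by gene symbol: every gene of the array whose symbol begins with TNFSF or TNFRSF, together with TNF, LTA, LTB, CD40, CD70 and EDAR. The rule gave 39 of the 19775 genes that the array names, measured by 76 probe sets that each name 1 gene. By role they are 14 ligands, 13 receptors that bind TRAF adaptors and have no death domain, 6 death domain receptors, 3 decoy or secreted receptors and 3 antisense or divergent non-coding transcripts. TNFSF12 and TNFRSF6B were represented only by probe sets that name several genes, so no level is given for them.

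All 9 single-colour arrays carried total RNA of HuCCT1, an established cell line of human bile duct cancer (cholangiocarcinoma). In 4 samples the cells had been transfected with an empty vector, and in 5 samples with a vector for YAPS127A, a constitutively active form of the transcriptional co-activator YAP1. The labels do not say whether the transfected cells were clones or pools, nor whether the samples of a group came from separate cultures. What the p-values measure is thus the spread between these arrays, part or all of which may be technical, and precision is limited by how few arrays there are.

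Ligands of this superfamily are mostly trimeric membrane proteins, some of which are released by proteases, and they signal by clustering receptors with cysteine-rich extracellular domains. Receptors with a death domain recruit adaptors such as FADD and TRADD and can start caspase activation, while the other signalling receptors bind TRAF proteins and activate NF-kB and MAP kinases. Decoy receptors bind ligand without passing on a death signal. In the bile ducts, the death receptors for TNFSF10 are known for their part in cholangiocyte apoptosis, and TNFRSF12A for the growth of bile duct cells after injury.

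Values are log2 signals as deposited, so that a difference of 1 is a doubling, and each gene is given by its brightest probe set. The median of all probe sets was 5.96, and the array medians lay between 5.95 and 5.97. The 7 biliary epithelial markers (KRT7, KRT19, KRT8, KRT18, EPCAM, SOX9 and CDH1) all had group means between 12.84 and 14.34. Their summed log2 signal was 93.7 to 94.2 with the empty vector and 93.9 to 94.4 with YAPS127A. In that sum, changes in opposite directions cancel. In limma, KRT8 rose by 0.30 (adjusted p = 0.00741) and CDH1 by 0.24 (adjusted p = 0.00882). SOX9 fell by 0.25 (adjusted p = 0.0182), and the other 4 biliary markers were not called. Of 7 leukocyte markers, 6 lay below the median in both groups. The exception, CD14, fell by 0.45 (adjusted p = 0.000259), from 6.19 ± 0.09 (SD, n = 4) to 5.75 ± 0.04 (SD, n = 5). The summed leukocyte log2 signal was 30.6 to 31.3 with the empty vector and 30.4 to 31.0 with YAPS127A. Below the median in both groups were also 2 of 3 endothelial markers (summed log2 signal 15.4 to 16.9 and 16.3 to 16.7) and 4 of 6 fibroblast markers (34.7 to 35.8 and 35.9 to 36.7). The exceptions were PECAM1, which lay near the median in both groups, COL1A1, which fell by 0.70 (adjusted p = 3.02e-05), and LUM, which rose by 1.45 (adjusted p = 7.89e-05). The brightest PECAM1 probe set had a difference of -0.01, but the mean over its 5 probe sets fell by 0.50 (adjusted p = 0.000653 in limma). No defining marker can be at 0 on this scale, and the part of other cells in the results was not tested.

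The superfamily did not move as a block. With YAPS127A, 6 of the 39 genes were higher, 10 were lower and 23 did not pass an adjusted p of 0.05 in limma. The 16 called genes are 41.0% of the members, against 28.7% of all genes called in either direction, 14.5% called higher and 14.2% called lower. Of the 39 members, 29 reached the median signal in at least 1 group, and 15 of these were called. Over all genes, 12494 reached it and 5150 of these were called. The groups did not overlap in 18 members, against 28.3% of all genes. The median difference over the 39 members was 0.00, the same to 2 decimals as over all genes, whereas the median size of the difference was 0.19, against 0.13 over all genes. In bulk RNA, fewer cells that express a gene and less RNA per cell cannot be told apart.

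**Figure D1:**
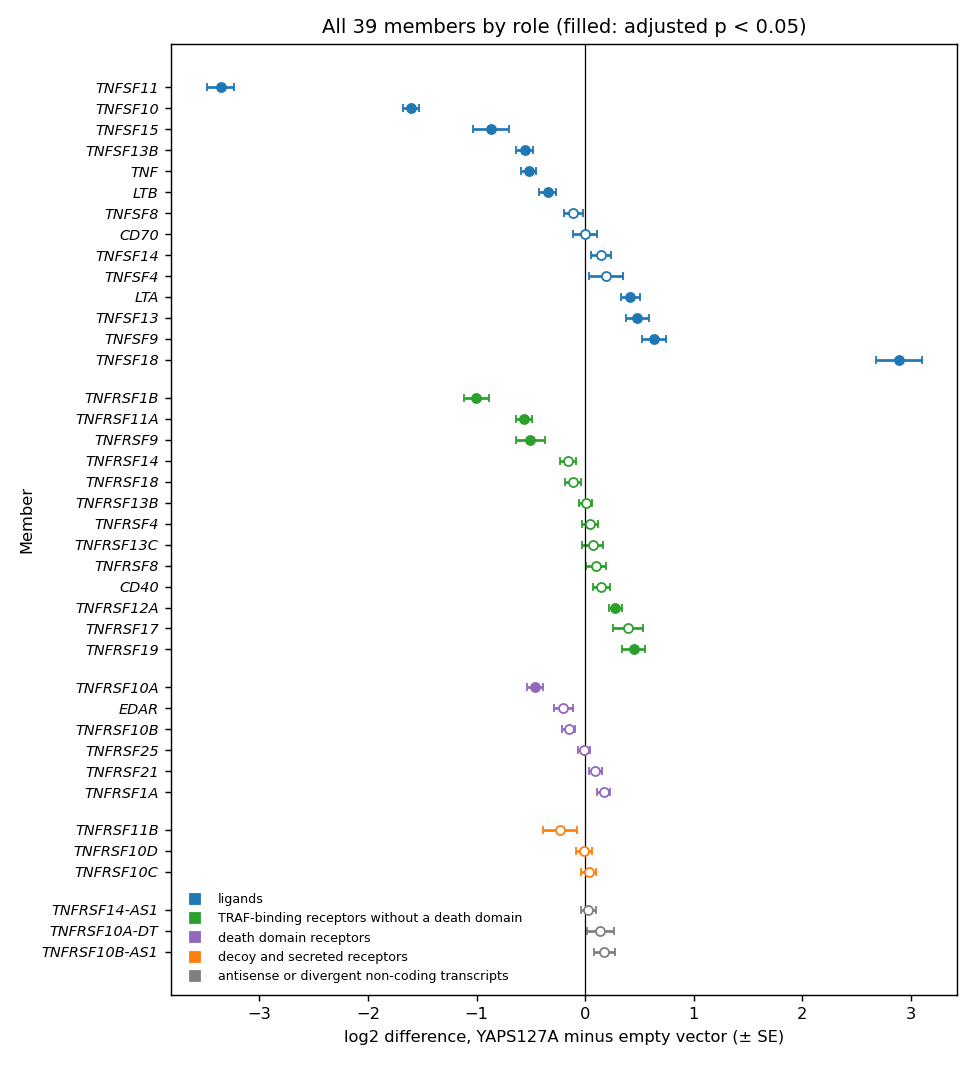
Log2 difference between YAPS127A (n = 5) and empty vector (n = 4) for each of the 39 members, grouped by role, with bars for the standard error and filled points for an adjusted p under 0.05. The ligands span -3.36 to 2.89, whereas the receptors reach from TNFRSF1B, which fell by 1.00, to TNFRSF19 at 0.45.

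Ligands made up 10 of the 16 called members. Of 14 ligands, 4 were higher, 6 were lower and 4 did not pass (71.4% called, against 28.7% of all genes). The groups did not overlap in 10 ligands, against 28.3% of all genes. The median size of a ligand's difference was 0.50, but the median difference was -0.06, because the changes ran both ways. Of the 22 receptors in the 3 receptor classes, 2 were higher, 4 were lower and 16 did not pass. The share of receptors called was 27.3%, near the 28.7% of all genes. Of the 39 members, 4 were both called and changed at least 2-fold: the ligands TNFSF11, TNFSF10 and TNFSF18 and the receptor TNFRSF1B. Over all genes this held for 619 of 19775 (3.13%), a smaller share.

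TNFSF11, also called RANKL, drives osteoclast formation through its receptor TNFRSF11A. Its log2 signal on the 4 empty vector arrays was 9.06, 8.95, 8.98 and 9.05, and on the 5 YAPS127A arrays 5.75, 5.80, 5.97, 5.51 and 5.25. The closest arrays of the groups were 2.98 apart, and the YAPS127A mean was below the median of all probe sets. TNFSF11 fell by 3.36 (SE 0.12, adjusted p = 7.42e-09) and was thus 10.2-fold lower, with means of 9.01 ± 0.05 (SD, n = 4) and 5.66 ± 0.28 (SD, n = 5). Its other probe set gave a smaller fall, by 1.04 (adjusted p = 5.29e-05). That probe set lay below the median of all probe sets in both groups, with means of 4.27 and 3.22. The brighter genes next to TNFSF11 on chromosome 13 moved the other way, with a median difference of 0.35 over up to 50 neighbours. With the neighbours' median subtracted on each array, the fall was 3.71 (adjusted p = 8.99e-10).

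TNFSF10, or TRAIL, is the ligand that triggers apoptosis through TNFRSF10A and TNFRSF10B. Its log2 signal was 9.97, 10.06, 9.97 and 10.00 with the empty vector and 8.34, 8.26, 8.30, 8.53 and 8.54 with YAPS127A. Every YAPS127A array was thus at least 1.42 lower on the log2 scale than every empty vector array. TNFSF10 fell by 1.60 (SE 0.07, adjusted p = 4.79e-08), or 3.04-fold. Its other probe sets fell by 1.63 (adjusted p = 1.04e-08) and 1.32 (adjusted p = 1.24e-05), so all of its probe sets gave a fall of similar size. Its neighbours on chromosome 3 had a median difference of -0.02.

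TNFSF18, the ligand of the co-stimulatory receptor TNFRSF18 (GITR), moved the other way. Its log2 signal was 5.45, 5.54, 4.54 and 4.65 with the empty vector and 7.58, 8.05, 7.82, 8.12 and 8.10 with YAPS127A. The empty vector arrays all lay below the median of all probe sets and split into a higher and a lower pair, while the YAPS127A arrays all lay above it. TNFSF18 rose by 2.89 (SE 0.21, adjusted p = 1.65e-06) and was thus 7.41-fold higher, with means of 5.04 ± 0.52 (SD, n = 4) and 7.93 ± 0.23 (SD, n = 5). Only 1 probe set measured it. TNFSF4 (OX40L), which lies near it on chromosome 1, did not pass, with a difference of 0.19 (SE 0.16, adjusted p = 0.458). The neighbours of both had a median difference of -0.33. With that median subtracted, TNFSF4 passed with a difference of 0.52 (adjusted p = 0.0357), and TNFSF18 had 3.22.

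**Figure D2:**
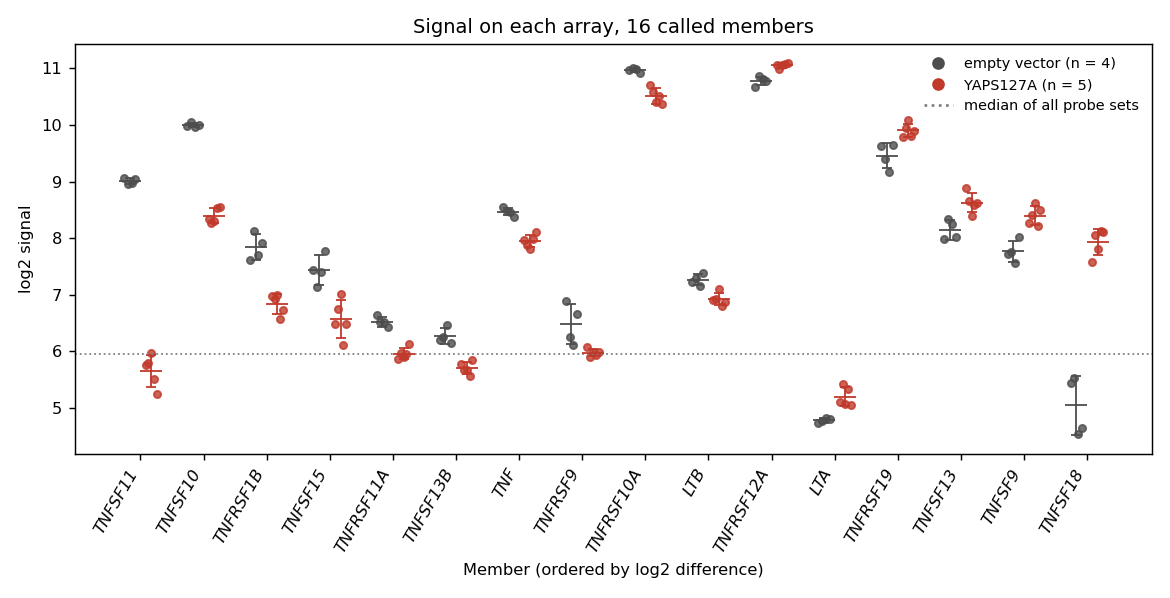
Log2 signal of the 16 called members on each of the 4 empty vector and 5 YAPS127A arrays (points), with the mean and SD of each group (bars) and the median of all probe sets as a dotted line. TNFSF11 drops from 9.01 to below the line, TNFSF18 rises from below it to 7.93, and LTA stays below it in both groups.

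The promoter sequences of the 3 ligands with the widest changes are shown, and those of TNFSF15 and TNFRSF9, both called lower, because they hold matches of more than 1 motif searched. RefSeq (GRCh38.p14) gave windows of 250 bases before a transcript start for 24 of the members, 31 windows in all, and TNFSF11 has a window for each of its 2 listed starts. The motifs were searched on both strands: that of the TEAD factors, the DNA-binding partners of YAP1 (GGAATG), that of AP-1 (TGANTCA) and that of NF-kB (by name). Capitals mark matches, and overlapping NF-kB matches are merged. The windows lie at chr13:42562486-42562735 (plus strand) and chr13:42573902-42574151 (plus) for TNFSF11, chr3:172523431-172523680 (minus) for TNFSF10, chr1:173050942-173051191 (minus) for TNFSF18, chr9:114792531-114792780 (minus) for TNFSF15 and chr1:7940840-7941089 (minus) for TNFRSF9. Each is printed 5′ to 3′ on the strand of its gene.
TNFSF11 (first start): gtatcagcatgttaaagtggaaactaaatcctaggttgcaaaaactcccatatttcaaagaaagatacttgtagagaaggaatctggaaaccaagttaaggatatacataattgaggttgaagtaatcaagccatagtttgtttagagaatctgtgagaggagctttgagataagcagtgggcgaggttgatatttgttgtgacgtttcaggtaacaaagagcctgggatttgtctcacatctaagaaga
TNFSF11 (second start): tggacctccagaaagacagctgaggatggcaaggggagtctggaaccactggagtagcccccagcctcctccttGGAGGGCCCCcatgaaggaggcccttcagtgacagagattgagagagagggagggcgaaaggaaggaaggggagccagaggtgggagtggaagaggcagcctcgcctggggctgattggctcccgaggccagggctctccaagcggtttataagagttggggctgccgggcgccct
TNFSF10: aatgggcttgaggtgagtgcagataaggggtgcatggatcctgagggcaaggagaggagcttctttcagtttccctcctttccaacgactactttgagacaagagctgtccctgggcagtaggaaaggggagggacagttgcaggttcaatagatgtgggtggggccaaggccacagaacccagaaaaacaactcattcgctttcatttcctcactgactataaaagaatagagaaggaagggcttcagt
TNFSF18: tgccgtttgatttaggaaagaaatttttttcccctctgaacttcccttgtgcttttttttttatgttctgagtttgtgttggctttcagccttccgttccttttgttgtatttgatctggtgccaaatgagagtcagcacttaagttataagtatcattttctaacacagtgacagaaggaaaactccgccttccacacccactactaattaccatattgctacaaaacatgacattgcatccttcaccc
TNFSF15: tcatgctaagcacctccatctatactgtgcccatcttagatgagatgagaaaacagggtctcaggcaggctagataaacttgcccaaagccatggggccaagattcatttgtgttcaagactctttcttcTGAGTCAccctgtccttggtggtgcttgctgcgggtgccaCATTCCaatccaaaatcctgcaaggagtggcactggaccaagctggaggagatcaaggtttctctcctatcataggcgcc
TNFRSF9: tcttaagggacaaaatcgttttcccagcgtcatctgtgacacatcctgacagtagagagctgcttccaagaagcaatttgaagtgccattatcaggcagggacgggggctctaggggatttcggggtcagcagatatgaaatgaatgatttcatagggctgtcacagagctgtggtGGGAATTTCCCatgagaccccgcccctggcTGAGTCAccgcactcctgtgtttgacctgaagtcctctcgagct

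The windows of TNFSF10 and TNFSF18 and the first window of TNFSF11 held none of the 3 motifs, which says only that these letters are not within the 250 bases. The second TNFSF11 window held an NF-kB match on the opposite strand, 176 bases before the start. The TNFSF15 window held an AP-1 match 120 bases before the start and a TEAD match on the opposite strand 80 bases before it. The TNFRSF9 window held an AP-1 match 44 bases before the start and overlapping NF-kB matches at 74 and 73. Over the 24 genes, the TEAD motif occurred in 2 (TNFSF15 and TNFRSF14), AP-1 in 3 (TNFSF15, TNFRSF9 and TNFSF14) and NF-kB in 8 (LTA, LTB, TNFRSF14, TNFRSF19, TNFRSF9, TNFSF11, TNFSF13 and TNFSF14). Counted by window, the TEAD motif was in 2, the AP-1 motif in 4 and the NF-kB motif in 10 of the 31 windows of members. The 2 windows of LTB overlap almost wholly, as do the 2 of TNFSF14, so the same matches are counted in both. Of 35116 windows of all genes, of the same length, 11.9% held the TEAD motif, 6.57% the AP-1 motif and 9.96% the NF-kB motif. A match is a description of the sequence and not a bound site.

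Of the other ligands called lower, TNFSF15 is a ligand of TNFRSF25 that co-stimulates T cells. Its log2 signal was 7.44, 7.14, 7.39 and 7.78 with the empty vector and 6.49, 6.75, 7.02, 6.11 and 6.49 with YAPS127A. The highest YAPS127A array came within 0.13 of the lowest empty vector array, without overlap. TNFSF15 fell by 0.87 (SE 0.17, adjusted p = 0.00265), or 1.82-fold. Its other probe set, below the median of all probe sets in both groups, fell by 0.47 (adjusted p = 0.0348). TNFSF13B (BAFF), a survival factor of B cells, had 6.21, 6.26, 6.47 and 6.14 with the empty vector against 5.78, 5.67, 5.67, 5.57 and 5.85 with YAPS127A. All 5 YAPS127A values lay below the median of all probe sets and all 4 empty vector values above it. TNFSF13B fell by 0.56 (SE 0.08, adjusted p = 0.000385). Its other probe set, below that median in both groups, fell by 0.87 (adjusted p = 3.69e-05). TNFSF13B lies on chromosome 13 like TNFSF11. With its neighbours' median of 0.35 subtracted, the fall of the brightest probe set was 0.92 (adjusted p = 6.72e-06).

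TNF, LTA and LTB are neighbours on chromosome 6 and encode the cytokine TNF and the lymphotoxins alpha and beta, which act in inflammation and the building of lymphoid tissue. TNF had log2 signals of 8.55, 8.49, 8.47 and 8.38 with the empty vector and 7.96, 7.88, 7.81, 7.99 and 8.10 with YAPS127A. The groups did not overlap, and TNF fell by 0.52 (SE 0.07, adjusted p = 0.000241), or 1.44-fold. LTB had 7.23, 7.29, 7.16 and 7.39 against 6.91, 6.92, 7.10, 6.80 and 6.87. The closest arrays of the groups were 0.06 apart, and LTB fell by 0.35 (SE 0.08, adjusted p = 0.00544). Its second probe set had a difference of 0.18 (adjusted p = 0.213), and the mean of both did not pass, with -0.08 (adjusted p = 0.461). LTA had 4.73, 4.76, 4.83 and 4.81 against 5.10, 5.43, 5.07, 5.33 and 5.05, below the median of all probe sets in both groups. It rose by 0.42 (SE 0.09, adjusted p = 0.00398) at this low signal.

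The other ligands called higher were TNFSF9 and TNFSF13. TNFSF9, the ligand of the T cell co-stimulator TNFRSF9, had 7.72, 7.75, 7.56 and 8.03 with the empty vector and 8.26, 8.41, 8.62, 8.21 and 8.49 with YAPS127A. It rose by 0.63 (SE 0.11, adjusted p = 0.000985), or 1.55-fold, with no overlap. CD70 and TNFSF14, its neighbours on chromosome 19 and the ligands of CD27 and of TNFRSF14, lay below the median of all probe sets and had differences of -0.00 (adjusted p = 0.995) and 0.14 (adjusted p = 0.326). TNFSF13 (APRIL), which acts on B cells and plasma cells, had 7.98, 8.34, 8.26 and 8.01 against 8.88, 8.66, 8.40, 8.59 and 8.61. It rose by 0.48 (SE 0.11, adjusted p = 0.00552), or 1.40-fold, and here too the groups did not overlap. The remaining ligand, TNFSF8 (CD30L), had a low signal and a difference of -0.11 (adjusted p = 0.431).

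Among the 13 TRAF-binding receptors, 2 were higher, 3 were lower and 8 did not pass (38.5% called, against 28.7% of all genes). TNFRSF1B, the second TNF receptor, which binds TRAF proteins and has no death domain, changed most. Its log2 signal was 7.62, 8.13, 7.70 and 7.91 with the empty vector and 6.98, 6.93, 6.99, 6.58 and 6.73 with YAPS127A. Every YAPS127A array was below every empty vector array. TNFRSF1B fell by 1.00 (SE 0.12, adjusted p = 7.46e-05), or 2.00-fold. TNFRSF8 (CD30), its neighbour on chromosome 1, had a difference of 0.10 (adjusted p = 0.536).

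TNFRSF11A (RANK), the signalling receptor of TNFSF11, had 6.65, 6.51, 6.51 and 6.44 with the empty vector and 5.86, 5.97, 5.89, 5.96 and 6.12 with YAPS127A. It fell by 0.57 (SE 0.07, adjusted p = 0.000137), or 1.48-fold, to the median of all probe sets, and its other probe set by 0.47 (adjusted p = 0.00126). TNFRSF9 had 6.88, 6.26, 6.11 and 6.66 against 6.07, 5.90, 5.98, 5.93 and 5.98. Its empty vector arrays were spread widely and the lowest of them was 0.05 above the highest YAPS127A array. TNFRSF9 fell by 0.50 (SE 0.13, adjusted p = 0.0168), and its other probe sets by 0.78 (adjusted p = 0.00135) and 0.56 (adjusted p = 0.0138). The last of these lay below the median of all probe sets in both groups. The call of the brightest probe set was lost without empty vector replicate 4 (-0.45, adjusted p = 0.0576) and with its neighbours' median of -0.16 subtracted (-0.34, adjusted p = 0.0912).

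Both TRAF-binding receptors that rose did so together with the genes around them. TNFRSF12A (Fn14), the receptor of TNFSF12, had log2 signals of 10.68, 10.86, 10.81 and 10.77 with the empty vector and 11.06, 10.99, 11.06, 11.07 and 11.10 with YAPS127A. The arrays of each group lay close together and did not overlap. TNFRSF12A rose by 0.28 (SE 0.06, adjusted p = 0.00561) and was thus 1.21-fold higher, with means of 10.78 ± 0.08 (SD, n = 4) and 11.06 ± 0.04 (SD, n = 5). Its neighbours on chromosome 16 had a median difference of 0.26, and with it subtracted 0.02 was left (adjusted p = 0.865).

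TNFRSF19, a receptor known from hair follicle and intestinal stem cells, had 9.63, 9.40, 9.17 and 9.64 with the empty vector and 9.79, 9.95, 10.09, 9.81 and 9.90 with YAPS127A. It rose by 0.45 (SE 0.10, adjusted p = 0.00794), or 1.36-fold, with no overlap. Its other probe sets, below the median of all probe sets in both groups, gave 0.27 (adjusted p = 0.0463) and 0.26 (adjusted p = 0.0558). Its neighbours on chromosome 13 had a median difference of 0.30, and with it subtracted the call was lost, at 0.14 (adjusted p = 0.410). The subtraction takes a gene's signal to follow that of its neighbours, and whether it does for these genes was not tested.

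**Figure D3:**
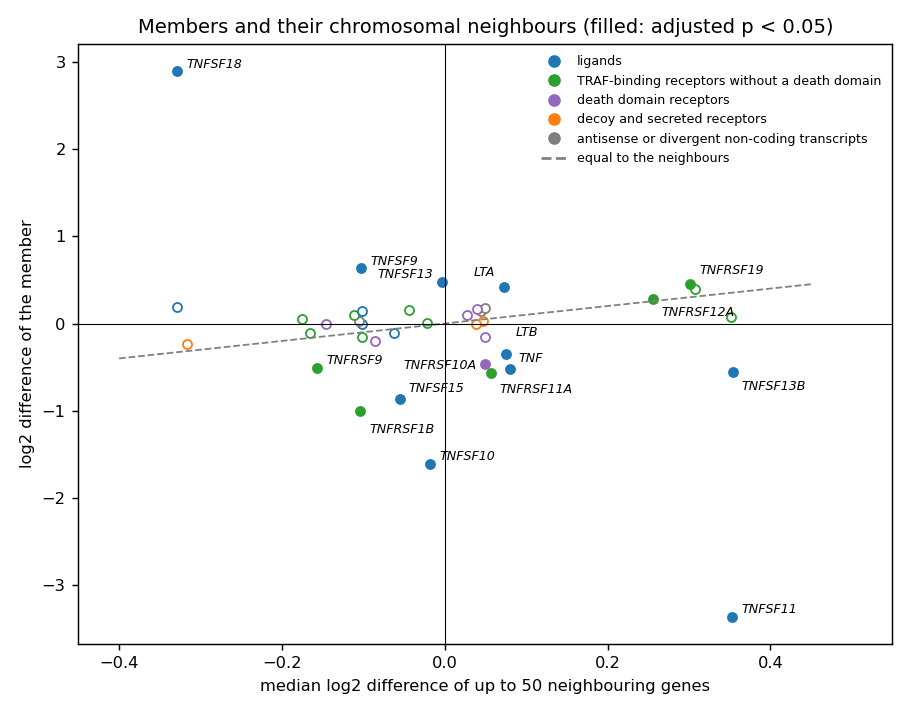
Log2 difference of each member against the median log2 difference of up to 50 bright neighbouring genes on its chromosome, with filled points for an adjusted p under 0.05 and a dashed line where both are equal. TNFRSF12A and TNFRSF19 lie near the line, while TNFSF11, TNFSF13B and TNFSF18 lie on the other side of 0 from their neighbours. The same holds for TNF, LTB, TNFRSF10A, TNFRSF11A, TNFSF9 and TNFSF13, whose neighbours' medians were small, from -0.10 to 0.08.

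Of the 8 TRAF-binding receptors that did not pass, TNFRSF14, TNFRSF18, TNFRSF4, TNFRSF8 and TNFRSF13B reached the median signal and had differences from -0.16 to 0.10. CD40, an activator of antigen-presenting cells, lay below the median in both groups, at 4.74 ± 0.09 (SD, n = 4) and 4.89 ± 0.13 (SD, n = 5), and none of its 4 probe sets was called. The B cell receptors TNFRSF13C and TNFRSF17, which bind TNFSF13B, also lay below it. TNFRSF17 had a difference of 0.40 (SE 0.14, adjusted p = 0.0592), beside a neighbours' median of 0.31, and with that subtracted 0.09 was left.

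Of the 6 death domain receptors, none was higher, 1 was lower and 5 did not pass in limma. The share called was 16.7%, against 28.7% of all genes. At an unadjusted p under 0.05, 1 was higher and 3 were lower. TNFRSF10A, a receptor of TNFSF10, had log2 signals of 10.98, 11.01, 11.00 and 10.93 with the empty vector and 10.71, 10.58, 10.41, 10.51 and 10.37 with YAPS127A. The groups did not overlap, and TNFRSF10A fell by 0.46 (SE 0.08, adjusted p = 0.000818), or 1.38-fold. Its other probe sets fell by 0.35 (adjusted p = 0.0251) and 0.44 (adjusted p = 0.000557).

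TNFRSF10B, the other apoptosis-inducing receptor of TNFSF10, had 12.83, 12.80, 12.91 and 12.85 with the empty vector and 12.72, 12.77, 12.76, 12.60 and 12.62 with YAPS127A. All 5 YAPS127A arrays were lower, by a margin of 0.03 at the closest. The difference was -0.15 (SE 0.06) and did not pass, with an adjusted p of 0.108. Its other probe sets had differences of -0.10 (adjusted p = 0.378), -0.11 (adjusted p = 0.330) and 0.11 (adjusted p = 0.512). It passed with its neighbours' median on chromosome 8 subtracted (-0.20, adjusted p = 0.0379) and with a trended, robust variance (adjusted p = 0.0260).

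TNFRSF1A, the main receptor of TNF, had 11.26, 11.39, 11.33 and 11.39 with the empty vector and 11.43, 11.47, 11.53, 11.58 and 11.54 with YAPS127A. Here the groups did not overlap either, but with a difference of 0.17 (SE 0.06) the adjusted p was 0.0657. It passed under 4 of the other settings, with adjusted p-values from 0.0242 to 0.0490. TNFRSF21, a death receptor of the nervous system that is also broadly expressed, was at 13.43 ± 0.04 (SD, n = 4) and 13.52 ± 0.05 (SD, n = 5), with a difference of 0.09 (adjusted p = 0.291). TNFRSF25, the receptor of TNFSF15, and EDAR, the ectodysplasin receptor, had -0.01 (adjusted p = 0.934) and -0.20 (adjusted p = 0.124).

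None of the 3 decoy or secreted receptors was called in limma, and 0 had an unadjusted p under 0.05 for the brightest probe set. TNFRSF11B (osteoprotegerin), which captures TNFSF11, had 10.52, 10.49, 9.94 and 10.60 with the empty vector and 9.86, 9.97, 10.09, 10.45 and 10.41 with YAPS127A. The groups overlapped, and the third empty vector array lay among the lowest values. The difference was -0.23 (SE 0.16, adjusted p = 0.349), beside a neighbours' median of -0.32 on chromosome 8. Without that array it was -0.38 (adjusted p = 0.0724). TNFRSF10D and TNFRSF10C, the membrane decoys of TNFSF10, had -0.01 (adjusted p = 0.953) and 0.03 (adjusted p = 0.805). Another TNFRSF10C probe set of similar signal had -0.25, with a limma p of 0.0327 and an adjusted p of 0.108. None of the 4 TNFRSF10C probe sets was called.

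TNFRSF10A, TNFRSF10B, TNFRSF10C and TNFRSF10D are neighbours on chromosome 8, and of the 4 only TNFRSF10A passed. Whether TNFRSF10A differs from the others in its change was not tested. None of the 3 non-coding transcripts was called, and 0 had an unadjusted p under 0.05 for the brightest probe set. Another TNFRSF14-AS1 probe set had 0.18, with a limma p of 0.0402 and an adjusted p of 0.127. By their brightest probe sets, TNFRSF10A-DT, TNFRSF10B-AS1 and TNFRSF14-AS1 had differences of 0.14 (adjusted p = 0.489), 0.18 (adjusted p = 0.224) and 0.03 (adjusted p = 0.828). Their probe sets may share sequence with the overlapping coding genes, so these values are uncertain.

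The members were measured by 76 probe sets, of which 7 were called higher and 20 lower, against 23.9% of all probe sets called in either direction. Of the 22 members with several probe sets, 7 had all of them called in 1 direction, 2 (LTB and TNFRSF19) had some called and 13 had none called. None had probe sets called in both directions.

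**Figure D4:**
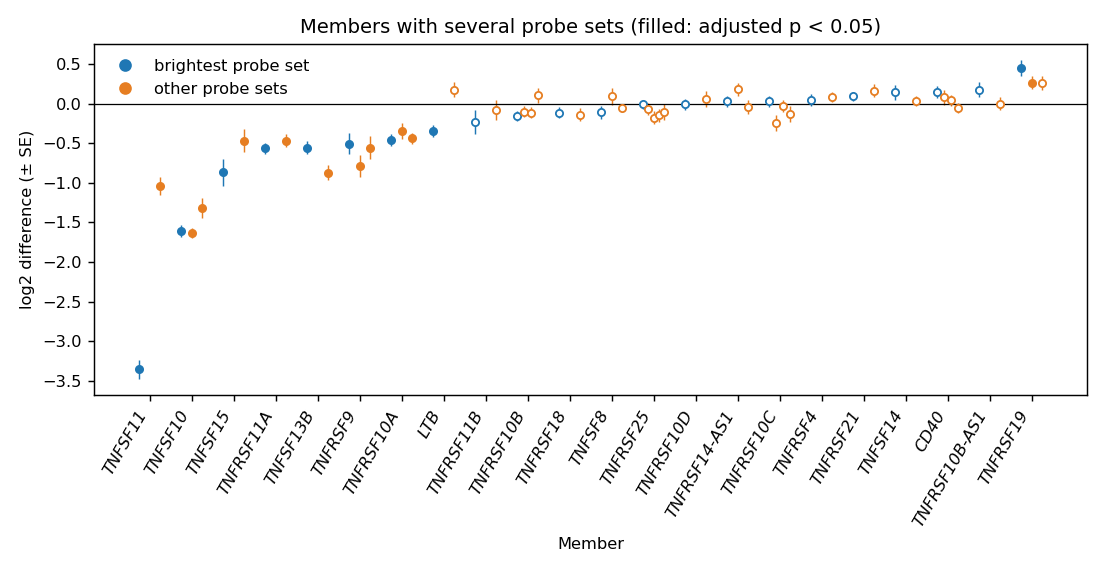
Log2 difference with its standard error for each probe set of the 22 members that have several, with the brightest probe set in blue and filled points for an adjusted p under 0.05. The probe sets of TNFSF11 differ most in size, at -3.36 and -1.04, and LTB is the only called member with a probe set on the other side of 0.

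Set beside their receptors, the ligands gave 22 known ligand-receptor pairs of 12 ligands and 17 receptors. In 3 pairs both partners were called lower: TNF with TNFRSF1B, TNFSF10 with TNFRSF10A, and TNFSF11 with TNFRSF11A. In no pair were both called higher. In 2 pairs the partners were called in opposite directions, LTA higher with TNFRSF1B lower, and TNFSF9 higher with TNFRSF9 lower. In 14 pairs only the ligand was called, in none only the receptor, and in 3 neither. The called receptors TNFRSF12A, whose ligand TNFSF12 has no level here, and TNFRSF19 are in none of the pairs. They could thus not count as pairs with only the receptor called. TNFSF18, which rose by 2.89, was among the 14, since its receptor TNFRSF18 had a difference of -0.11 (adjusted p = 0.303). The pairs share genes, so they are no independent counts.

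**Figure D5:**
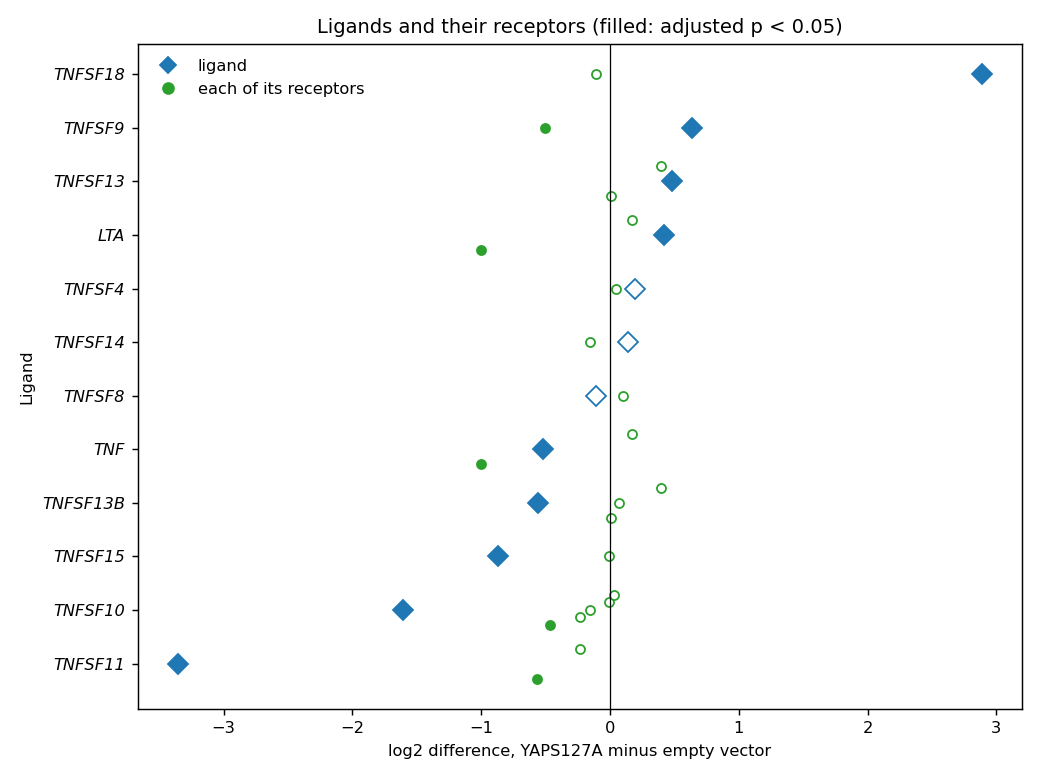
Log2 difference (YAPS127A minus empty vector) of 12 ligands, as diamonds, and of each of their receptors, as circles on the same row, filled where the adjusted p was under 0.05. TNF, TNFSF10 and TNFSF11 lie to the left of 0 with a called receptor, and TNFSF9 and LTA lie across 0 from their called receptor. The other receptor of LTA, TNFRSF1A, was not called and lies on the same side as LTA.

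Other genes of the pathway were taken from 4 lists. Of 8 measured superfamily genes under other symbols, 1 was higher and none lower (1 and 1 at an unadjusted p under 0.05). The share called was 12.5%, against 28.7% of all genes. FAS, the receptor of FASLG and an inducer of apoptosis, rose by 0.79 (SE 0.07, adjusted p = 1.21e-05), from 9.27 ± 0.12 (SD, n = 4) to 10.06 ± 0.09 (SD, n = 5). Its neighbours had a median difference of 0.36, and with that subtracted 0.43 was left (adjusted p = 0.00266). LTBR, the receptor of lymphotoxin heterotrimers, did not pass, with -0.22 (adjusted p = 0.0568). It passed with its neighbours' median subtracted (-0.27, adjusted p = 0.0208). In that fit the list had 2 genes higher and 1 lower, against 29.6% of all genes called. CD40LG was not analysed here.

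Of 24 measured genes of receptor-proximal signalling, 4 were higher, 11 lower and 9 did not pass (62.5% called, against 28.7% of all genes). Their median difference was -0.23. All 24 reached the median signal, and genes that do so are called more often, 5150 of 12494 over the array. CFLAR (c-FLIP), which blocks caspase-8 at death receptors, fell by 0.90 (SE 0.07, adjusted p = 3.42e-06). The ubiquitin ligase BIRC2, the TRAF3 adaptor, SHARPIN of the linear ubiquitin ligase complex and the stress kinase MAP3K5 fell by 0.42, 0.43, 0.44 and 0.47, with adjusted p-values from 0.000238 to 0.000987. CYLD, a deubiquitinase that restrains NF-kB signalling, rose by 0.93 (SE 0.07, adjusted p = 2.2e-06). With the neighbours' median subtracted, the list had 2 genes higher and 4 lower, against 29.6% of all genes called in that fit. All 6 had been called without the subtraction. CFLAR had -0.71 and CYLD 0.50 there, and MAP3K5 did not pass, at -0.08 (adjusted p = 0.472).

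Of 6 genes of shedding and processing, 2 were higher and none lower (3 and 1 at an unadjusted p under 0.05). The share called was 33.3%, near the 28.7% of all genes. RHBDF1, a rhomboid-like partner of the TNF-releasing protease ADAM17, rose by 0.77 (SE 0.17, adjusted p = 0.00496), and FURIN, a proprotein convertase, by 0.46 (SE 0.10, adjusted p = 0.00604). For RHBDF1, 0.43 was left with its neighbours' median of 0.35 subtracted. ADAM17 itself had -0.17 (adjusted p = 0.0613).

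Of 9 measured genes that TNF is known to induce, 1 was higher, 5 were lower and 3 did not pass, beside 14.5% of all genes called higher and 14.2% called lower. NFKBIA, the inhibitor of NF-kB, fell by 0.78 (SE 0.08, adjusted p = 2.87e-05) and TNFAIP2 by 0.63 (SE 0.06, adjusted p = 8.74e-06). TNFAIP8, the adhesion molecule ICAM1 and TNFAIP3, a ubiquitin-editing inhibitor of NF-kB, fell by 0.33 (adjusted p = 0.00497), 0.30 (adjusted p = 0.00255) and 0.26 (adjusted p = 0.0346). ICAM1 and TNFAIP3 lost their call with the neighbours' median subtracted, at -0.13 (adjusted p = 0.184) and 0.14 (adjusted p = 0.193). VCAM1, also an adhesion molecule, went the other way. It rose by 2.15 (SE 0.10, adjusted p = 7.01e-08), from 5.66 ± 0.11 (SD, n = 4) to 7.81 ± 0.21 (SD, n = 5). Over the 4 lists together, 8 of 45 genes were higher and 15 lower (51.1% called, against 28.7% of all genes), with a median difference of -0.14. Of the 45, 39 reached the median signal and 23 of these were called, beside 5150 of 12494 such genes over the array.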

How the data were processed

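Total RNA of HuCCT1 cells was hybridised with a biotin label to 9 single-colour arrays, 4 with the empty vector and 5 with YAPS127A, per the labels. The table that the authors deposited holds log2 signals for 54675 probe sets, judged from its range of 1.62 to 14.96. The sources used here do not give how the authors normalized the values, and depth in reads has no meaning for arrays. There were 0 columns of other samples.

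Without its 62 control probe sets, the table left 54613 for tests in limma 3.58.1 (R 4.3.3; lmFit and eBayes, no covariate), with Benjamini-Hochberg adjustment over all of them and a threshold of 0.05. The script was tested on simulated data. The platform annotation named 1 gene for 41091 probe sets, more than 1 for 1801 and no gene for 11721. RefSeq (GRCh38.p14) matched 41037 probe sets and gave current symbols. A gene's value is that of the probe set with the highest mean.

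The members, lists, pairs and alternatives were chosen with earlier results of these data known. Values were given for TNFRSF10B and TNFRSF12A, every called member, the 5 brightest members not called, and up to 6 called genes with the lowest p-values in each list. Other members were named to complete a group, a pair or a chromosomal neighbourhood, and LTBR, ADAM17 and the markers of other cell types were chosen after their values were seen. For the neighbours, the median of up to 50 genes of a chromosome (25 on each side, in RefSeq order) with a signal above the median was used. The alternatives were quantile normalization, median centring, leaving out dim probe sets, a trended and robust variance, array weights, the replicate block, the neighbours' median subtracted, the actin 3-prime to 5-prime gap as a covariate, the mean over probe sets, each array left out in turn, and, added after seeing the data, leaving out both arrays with the widest actin gap. Same-numbered arrays did not deviate together. Plots used matplotlib 3.10.9 (Python 3.11.15).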

Additional observations from a re-analysis of the deposited data

Results flagged for a closer look

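TNFRSF11B stood out in 1 sample. Empty vector replicate 3 had a log2 signal of 9.94, whereas the nearest of the other empty vector arrays had 10.49 and the highest 10.60. Its gap to the nearest array was 0.83 of the range of the group. Of 42 groups of arrays examined in the same way, this was the only one. Chance flags about 1 group in 20, so 1 among 42 is no more than chance gives. The same array had the widest gap between the 3-prime and 5-prime actin probe sets of its group, at 1.69, and whether that gap bears on the value was not tested.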

How the results depend on the processing

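The counts of members called higher (6) and lower (10) stayed within 1.5 times under all 19 alternatives, as did that of member probe sets called (27) under those run for it, and no called member reversed. Among members not called, TNFRSF11B turned to 0.09 with the neighbours' median subtracted, and CD70, TNFRSF10C, TNFRSF10D, TNFRSF13B, TNFRSF13C, TNFRSF18, TNFRSF25 and TNFRSF4 also took both signs over the settings. With the neighbours' median subtracted, the pathway genes called fell to 15, from 23. Leaving out 1 array at a time gave 6 to 7 members higher, 9 to 10 lower, 24 to 28 probe sets and 19 to 24 pathway genes. Of the 16 called members, 12 kept their call in every setting that could be run for them, except that LTA has no value where dim probe sets are left out. The call was lost in some settings for LTB, TNFRSF9, TNFRSF12A and TNFRSF19, and of the 23 members not called, TNFRSF10B, TNFRSF1A, TNFRSF17 and TNFSF4 passed in some. TNFRSF17 passed without YAPS127A replicate 1 (0.45, adjusted p = 0.0486) and without YAPS127A replicate 2 (0.27, adjusted p = 0.0457).

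Samples of the same replicate number did not deviate together (correlations of -0.25 to 0.04 over 4 pairs, and 0 of 4 empty vector arrays closest to their own number), so the numbers are not taken as pairs. With the replicate block, 4 members were higher and 9 lower, with 22 probe sets and 20 pathway genes called. LTB (-0.33, adjusted p = 0.0540), TNFRSF12A (0.26, adjusted p = 0.0513) and TNFRSF19 (0.45, adjusted p = 0.0599) then missed the threshold. The actin gap, a sign of RNA quality, was 0.985 to 1.69 with the empty vector and 0.888 to 1.58 with YAPS127A (difference -0.158, exact 2-sided permutation p = 0.444). As a covariate it left 6 members higher and 10 lower.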

Other observations

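A further 8 probe sets name a member together with other genes, so that their signal cannot be given to 1 gene. Of these, 5 were called higher with YAPS127A, 0 were called lower and 3 were not called, against 23.9% of all probe sets called in either direction, with log2 differences from -0.11 to 0.59.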
